A study of Lupinus albus with 12 samples.

Results

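White lupin (Lupinus albus) roots that had spent 15 min in 10 mM sucrose were compared with roots that had spent 10 min in the same solution. The comparison asks which genes moved in the 5 min after the earliest sampled response to the sugar. It holds 6 of the 12 libraries of the study, 3 per time, and 16358 of the 23427 genes in the deposited value table, namely every gene listed at 1 or more in no fewer than 3 of the 6 libraries. All plants were wild-type seedlings of the cultivar Amiga grown hydroponically in Hoagland solution, a complete nutrient medium, and sucrose was added straight to that medium. Root sections of 5 to 6 cm that included the tip were harvested, so the samples are a mixture of root zones and tissues and not a single cell type. Untreated roots (0 min) and roots of 20 min in sucrose, with 3 libraries each, were used only to estimate the spread and as side values. The labels describe 3 plants per replicate and the methods of the study 1 plant, and each replicate number was sequenced on its own Nanopore flow cell.

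In plants, sucrose is both the sugar carried in the phloem from leaves to roots and a signal that alters gene expression, in part through hormones such as auxin and gibberellin. White lupin is known for cluster roots, dense groups of short rootlets that release organic acids and phosphatases under phosphorus or iron shortage, and sucrose sent from the shoot takes part in their initiation. Genes of early hormone response, cell wall loosening and transcription control are therefore the ones usually followed in the first minutes after sucrose reaches the root.

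The values are whole numbers deposited under the name CPM whose scale could not be settled, and each run of 3 values follows replicates 1, 2 and 3. The totals were 336407, 311288 and 391998 at 10 min, and 196413, 298356 and 380571 at 15 min. The first 15 min library was thus the lowest of the 6, with 13991 genes above 0 against 15603 to 16950 in the others. Flow cell 3 stood apart as well. The log2 values of its 10 and 15 min libraries correlated at 0.929, whereas libraries of a single time correlated at 0.747 to 0.812 where 1 of them came from flow cell 3.

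**Figure D1:**
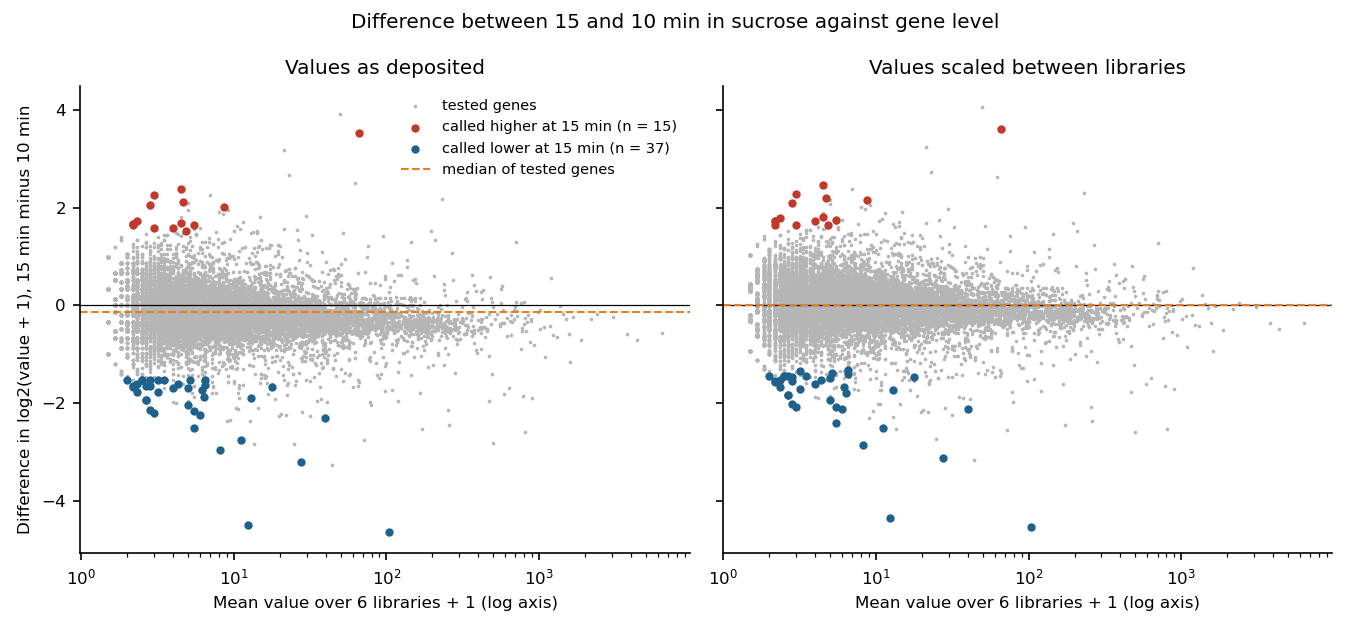
Difference in log2(value + 1) between 15 and 10 min in sucrose for each of the 16358 tested genes, against the mean value over the 6 libraries plus 1 on a log axis, for the values as deposited and after median-of-ratios scaling. The 15 genes called higher with the deposited values are in red and the 37 called lower in blue. They lie mostly at the low end of the level axis, as most tested genes do. The median of all genes (dashed) is -0.14 without and 0.01 with scaling.

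Few genes separated the roots of 15 min from those of 10 min. The difference was taken as the mean of log2(value + 1) at 15 min minus that at 10 min, and a gene was called where this difference was at least 1.5 in size with a two-sided limma p-value no larger than 0.05 before adjustment. By this rule 15 genes were higher at 15 min (0.0917% of those tested) and 37 were lower (0.226%). No gene passed an adjusted p-value of 0.05, the lowest being 1.0, and 226 genes (1.38%) reached 0.05 before adjustment. This is below the share of 0.05 that such a limit passes on average where no gene differs. Of all tested genes, 96.3% lay within 1 log2 unit of 0, and the 95% interval of a difference reached 1.07 log2 units to either side for the median gene. All 3 libraries of 15 min lay above all 3 of 10 min in 84 genes (0.514%) and below them in 414 genes (2.53%).

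The balance between the directions moved with the scaling of the libraries. The median difference over all genes was -0.14 with the deposited values, and within flow cells 1, 2 and 3 it was -0.58, 0.00 and 0.00, so the shift came from the pair that holds the low 15 min library. With scaling of each library by the median ratio of its genes to their mean (median-of-ratios scaling) the median was 0.01, 26 genes were called in each direction, and the 2 times were apart in 355 genes upward (2.17%) and 376 downward (2.3%). When each flow cell had its own level in the model (a replicate block), 24 genes were called higher and 48 lower, and 372 reached 0.05 before adjustment. All 15 and all 37 genes stayed called with the block, and 15 and 25 with scaling. Without the first 15 min library 32 genes were called higher and 27 lower. The other single omissions gave 25 to 48 higher genes and 42 to 111 lower genes, the largest counts without the third library of 10 min and the third of 15 min.

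The called genes were mostly listed with small values. Their median over the 6 libraries was 3.0 in the higher and 3.33 in the lower genes, beside 3.33 in all tested genes. In 6 of the 15 higher genes every 10 min library was listed at 0, and in 10 of the 37 lower genes every 15 min library was, so those genes had passed the filter only through the time at which they were high. A fitted difference of such a gene and its interval depend on the added 1 and bound no fold. Neither is separate support for a change, since the filter had already picked the gene by that pattern. Against a pseudocount of 5 none of the 15 and 6 of the 37 remained called. The times did not overlap in 11 of the 15 and 23 of the 37. For the 6 and 10 genes at 0 throughout a time, this was set by the filter. Under every omission of 1 of the 6 libraries, 3 of the 15 and 7 of the 37 were called. Of those, only Lalb_Chr07g0180951 and Lalb_Chr02g0156671 were above 0 at both times. The rest had passed the filter through a single time, and each omission used the same filtered genes. For them, staying called is no separate support. An exact permutation test of 3 against 3 libraries cannot go below 0.1, so no single gene could be tested that way.

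Among the genes higher at 15 min, the interval farthest from 0 belonged to Lalb_Chr07g0180951, whose product resembles the nuclease of Harbinger transposons. It lies on chromosome 7 from 2093625 to 2095340 (CNRS_Lalb_1.0). Its values were 1, 0 and 0 at 10 min and 4, 3 and 13 at 15 min. The times did not overlap, and its difference was 2.38, 95% interval 1.27 to 3.48. In untreated roots it was listed at 1, 0 and 0, and at 20 min at 5, 4 and 4. The other 2 genes called without each library in turn have no described product and had passed the filter only through 15 min. Lalb_Chr02g0153931 was listed at 0 in all 10 min libraries and at 2, 7 and 2 at 15 min. Lalb_Chr14g0369791 was listed at 0 in all 10 min libraries and at 2, 5 and 5 at 15 min, yet at 5, 3 and 4 in untreated roots, so its 15 min values overlapped the untreated ones.

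Transcription factors, proteins that bind DNA and set the rate of transcription, made up 3 of the 15. This is 0.403% of the 744 tested genes in the lists of such families, beside 0.0917% of all tested genes. The share rests on 3 genes of small values and was not tested. Lalb_Chr05g0213931 belongs to the bHLH family, which in plants includes regulators of cell elongation and root hairs. It was listed at 0, 0 and 0 at 10 min and at 5, 1 and 2 at 15 min (difference 1.72, 95% interval 0.81 to 2.63). Lalb_Chr03g0029071, of the MYB-HB-like family, was at 1, 0 and 3 at 10 min and at 8, 5 and 4 at 15 min (1.69, 95% interval 0.42 to 2.97). Lalb_Chr14g0374001 belongs to the AP2-EREBP family, which includes the ethylene response factors. It was at 0 in all 10 min libraries and at 3, 1 and 3 at 15 min, and at 0, 4 and 3 in untreated roots. Each of these genes was called without at least 4 of the 6 libraries in turn, not without every one. Lalb_Chr05g0213931 and Lalb_Chr14g0374001 had passed the filter only through 15 min, so their times could not overlap.

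The remaining higher genes of described product were as low. Lalb_Chr01g0017941 encodes an F-box protein, the part of a ubiquitin ligase that selects its targets, and was at 0, 0 and 2 at 10 min and at 4, 3 and 3 at 15 min (1.58, 95% interval 0.65 to 2.51). Lalb_Chr24g0393851 carries a DYW domain, found in proteins that edit organelle transcripts, and was at 0, 0 and 0 and then at 3, 1 and 3. Lalb_Chr14g0370961 encodes a small cysteine-rich membrane protein of the CYSTM type, a family linked to stress, and its libraries overlapped with 1, 0 and 4 at 10 min and 7, 2 and 9 at 15 min. Lalb_Chr08g0230921, with no described product, was the second most abundant of the 15, at 3, 0 and 6 at 10 min and 12, 6 and 19 at 15 min. In untreated roots it was at 8, 7 and 15, within the range of the 15 min libraries.

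**Figure D2:**
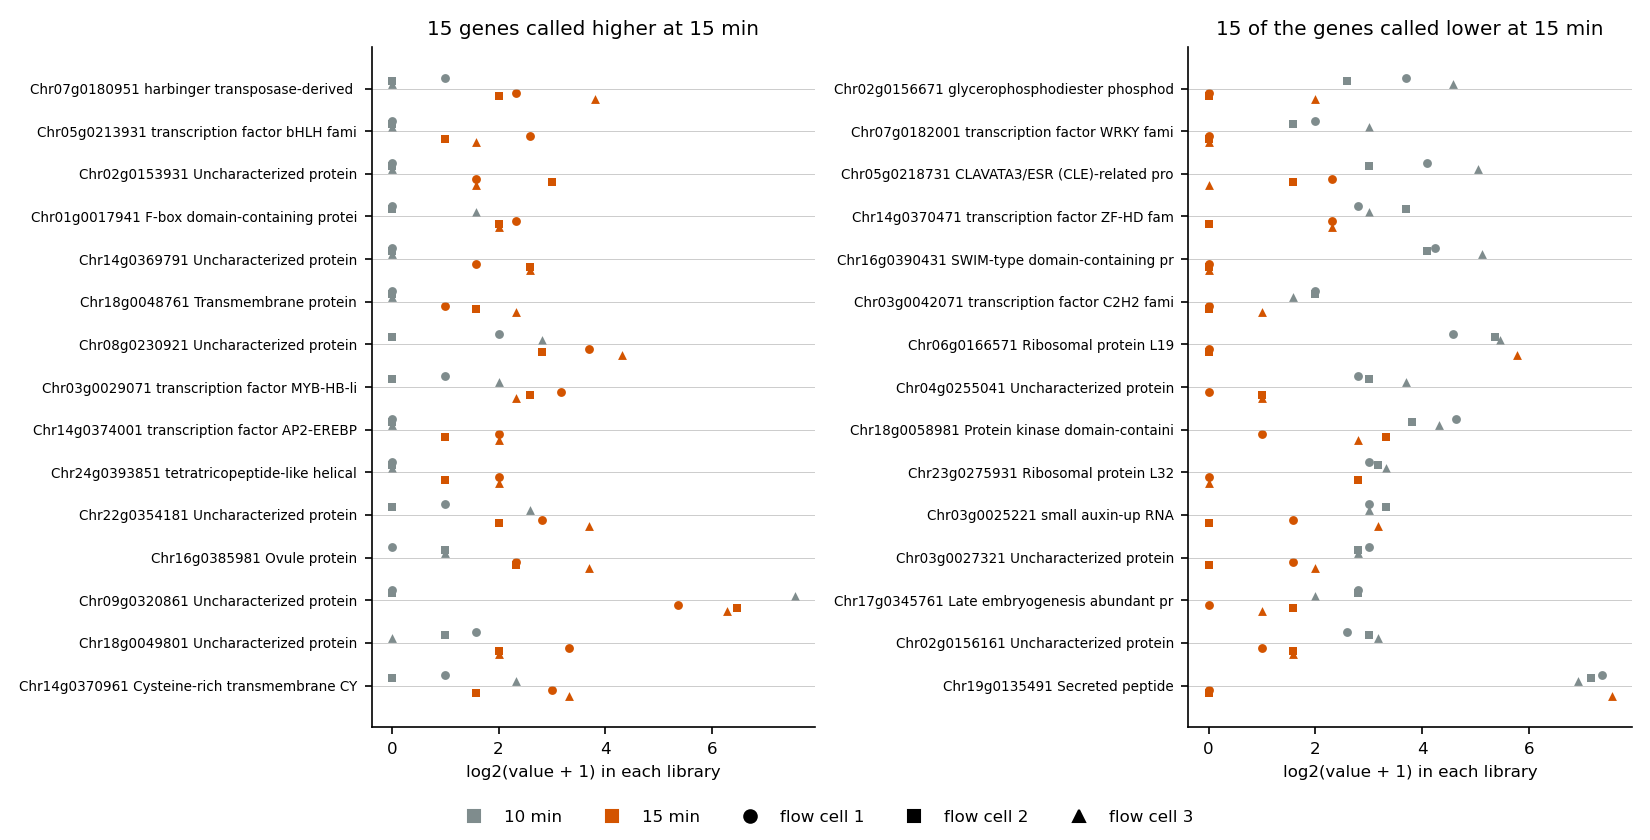
log2(value + 1) in each library of 10 min (grey) and 15 min (orange) for the 15 genes called higher and for 15 of the 37 called lower, with a marker shape for each flow cell. Most genes are listed at or near 0 at 1 of the times, and in Lalb_Chr09g0320861, Lalb_Chr06g0166571 and Lalb_Chr19g0135491 a single library lies with the other time.

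Among the genes lower at 15 min, Lalb_Chr02g0156671 encodes a glycerophosphodiester phosphodiesterase, an enzyme that cleaves phospholipid breakdown products and is known from phosphate-starved plants. It lies on chromosome 2 from 14614212 to 14614627. It was at 12, 5 and 23 at 10 min and at 0, 0 and 3 at 15 min. All 3 libraries of 15 min lay below those of 10 min, the difference was -2.96, 95% interval -4.66 to -1.25, and it was called without any 1 of the libraries. It was at 16, 2 and 20 in untreated roots and at 11, 10 and 8 at 20 min. The 15 min libraries were thus low beside all 20 min libraries and all untreated ones but the second.

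Regulators of transcription were also found on this side. The WRKY gene Lalb_Chr07g0182001, of a family known for defence and nutrient responses, was at 3, 2 and 7 at 10 min and at 0 in every 15 min library (-2.20, 95% interval -3.56 to -0.83). In untreated roots it was at 2, 0 and 5, and at 20 min at 2, 7 and 6. Lalb_Chr06g0167781 encodes a B subunit of the NF-Y complex, which binds CCAAT boxes, and was at 3, 2 and 6 and then at 0, 0 and 0 (-2.13, 95% interval -3.60 to -0.66). Both were called without each library in turn. So were the undescribed Lalb_Chr05g0215251, at 6, 1 and 3 and then at 0, 0 and 0, and Lalb_Chr22g0360081, at 3, 1 and 4 and then at 0, 0 and 0. All of these genes had passed the filter only through 10 min, so neither intervals nor omissions are separate support for them. Lalb_Chr14g0370471, a zinc finger homeodomain (ZF-HD) gene, was at 6, 12 and 7 at 10 min and at 4, 0 and 4 at 15 min, while all untreated and 20 min libraries were listed at 0. Its difference was -1.62, 95% interval -2.82 to -0.43, and with scaling it was -1.40, under the limit for a call. The C2H2 zinc finger gene Lalb_Chr03g0042071, at 3, 3 and 2 and then at 0, 0 and 1, also lost its call with scaling (-1.44).

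A peptide gene showed the same direction. CLE peptides are short secreted signals that receptor kinases perceive and that in plants limit meristem size and nodule number. The CLE gene Lalb_Chr05g0218731 was at 16, 7 and 32 at 10 min and at 4, 2 and 0 at 15 min. The times did not overlap (-2.74, 95% interval -4.70 to -0.78), and it was called without 5 of the 6 libraries in turn. It was at 17, 9 and 110 in untreated roots and at 4, 9 and 2 at 20 min, so both later times lay below most of the earlier libraries.

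Of the 52 called genes on 21 chromosomes, 2 pairs lay within 50 kb of each other. Lalb_Chr18g0058981 and Lalb_Chr18g0059011, separated by 17609 bp on chromosome 18, both encode proteins with a kinase domain, which pass signals on by phosphorylation. The former was at 24, 13 and 19 at 10 min and at 1, 9 and 6 at 15 min (-1.88, 95% interval -3.43 to -0.34). The latter was at 75, 67 and 39 and then at 3, 10 and 39, so that it overlapped through flow cell 3 (-2.29, 95% interval -4.18 to -0.40). Between them, Lalb_Chr18g0059001, of the Bet v I allergen type, was at 19, 0 and 66 and then at 1, 4 and 88, and did not share the pattern. Whether the counting split reads between the kinase genes was not tested, as their sequences were not compared. The other pair, on chromosome 12, was the Stig1-like gene Lalb_Chr12g0196041 (1, 2 and 7, then 0, 1 and 0) and the undescribed Lalb_Chr12g0196061 (6, 1 and 3, then 0, 0 and 0). The latter was called without each library in turn, but had passed the filter only through 10 min.

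Several more of the lower genes had a described product. Lalb_Chr24g0397701, of the Lambda-DB family of transcription factors, was at 34, 13 and 30 and then at 7, 14 and 3, so that the times overlapped through flow cell 2, and with scaling its difference of -1.66 became -1.45, under the limit for a call. The LEA-14 gene Lalb_Chr17g0345761, of a family that protects cells under water shortage, was at 6, 6 and 3 and then at 0, 2 and 1. Lalb_Chr16g0383731, a CASP-like gene of the family that includes the scaffold of the Casparian strip, was at 3, 3 and 2 and then at 0, 1 and 0. Lalb_Chr07g0186801, a DnaJ co-chaperone, was at 3, 6 and 7 and then at 0, 3 and 1. No described product was given for 14 of the 37 lower and 6 of the 15 higher genes.

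The 4 called genes with a difference over 3 in size alternated between 0 and far higher values. The uncharacterized Lalb_Chr09g0320861 was at 0, 0 and 187 at 10 min and at 40, 88 and 77 at 15 min (3.52, 95% interval 0.25 to 6.80), and at 0 in all untreated and 20 min libraries. Lalb_Chr19g0135491, named a secreted peptide, was at 164, 142 and 120 at 10 min and at 0, 0 and 187 at 15 min (-4.63, 95% interval -9.00 to -0.26), and one untreated library was at 0 as well. The SWIM-type zinc-binding gene Lalb_Chr16g0390431 was at 18, 16 and 34 and then at 0, 0 and 0 (-4.49, 95% interval -7.87 to -1.11), with 64, 0 and 0 in untreated roots and 0, 31 and 0 at 20 min. The fourth was Lalb_Chr06g0166571, a gene for ribosomal protein L19 of the large subunit, at 23, 40 and 43 and then at 0, 0 and 54 (-3.21, 95% interval -5.74 to -0.67), and at 0 in all 6 libraries outside these times. In 3 of the 4 a single library decided the size. Without the third 10 min library Lalb_Chr09g0320861 had a difference of 6.04, and without the third 15 min library Lalb_Chr06g0166571 had one of -5.13, the only adjusted p-values of at most 0.05 in any fit (0.00018 and 0.000458, limma). Each of these fits left out the very library that went against the call. What remained was at 0 except at a single time, so the spread came mostly from zeros and these p-values are no support. Without the third 15 min library the difference of Lalb_Chr19g0135491 was -7.15.

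These 4 genes shared a very short model. Their annotated spans were 236 to 268 bp, whereas the median span was 2993 bp over all tested genes and only 41 of those (0.251%) spanned at most 300 bp. Among the 1154 genes with a mean value of at least 50, 30 were listed at 0 in at least 1 of the 6 libraries. Of the 30, 11 (36.7%) spanned at most 300 bp, against 6 of the other 1124 (0.534%). The called genes as a whole had median spans of 1379 bp (higher) and 681 bp (lower). These are descriptions, and whether the listed zeros reflect the plants or the assignment of reads to short models was not tested. For L19, 9 genes carry the name, and a neighbour, Lalb_Chr06g0166581, was at 63, 43 and 8 and then at 71, 26 and 16. The 9 genes together summed to 543, 562 and 387 at 10 min and to 343, 367 and 386 at 15 min. The neighbour was higher at 15 min in flow cells 1 and 3 and lower in flow cell 2. The short gene was at 0 at 15 min in flow cells 1 and 2. Whether reads moved between these genes was not tested. The L32 gene Lalb_Chr23g0275931, called lower at 7, 8 and 9 and then 0, 6 and 0, was likewise 1 of 9 of its name, which summed to 864, 876 and 755 and then to 590, 660 and 775.

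**Figure D3:**
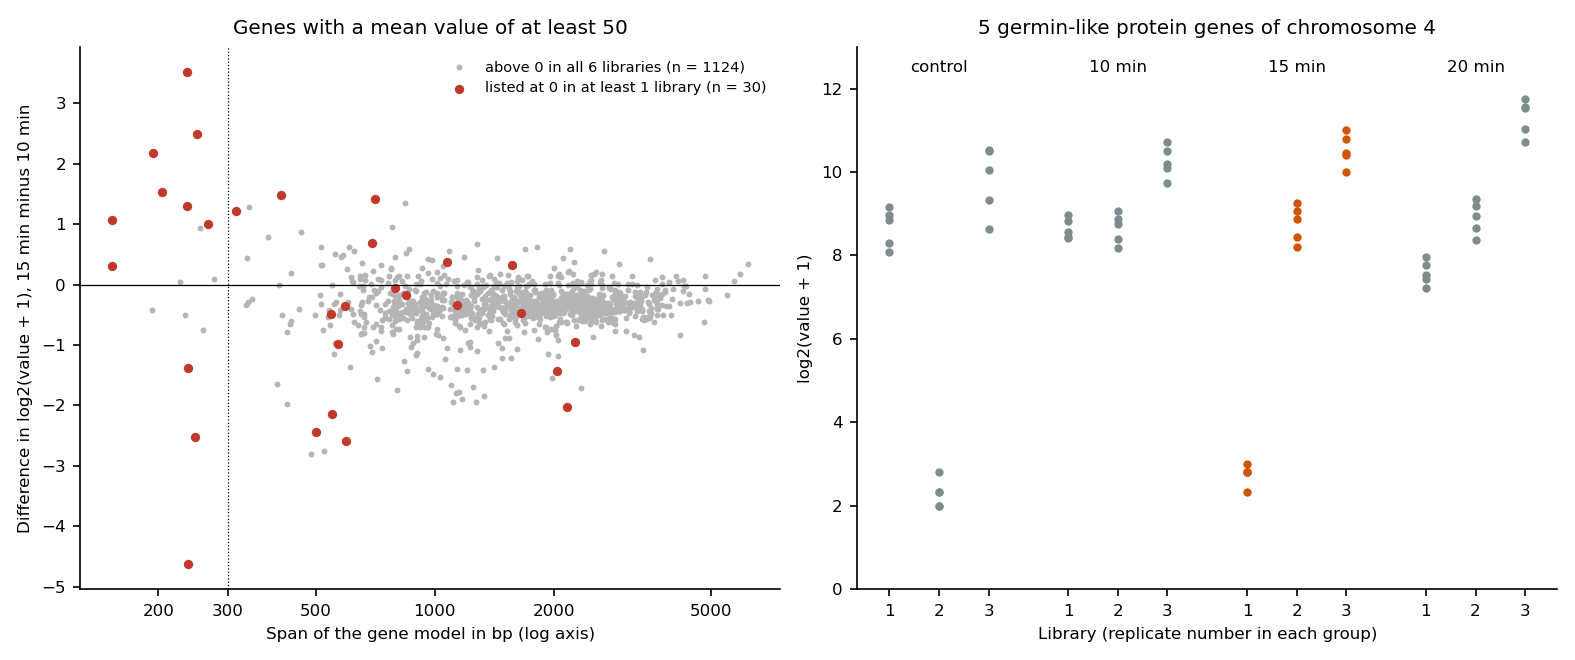
Left, difference in log2(value + 1), 15 min minus 10 min, against the span of the gene model in bp on a log axis for the 1154 genes with a mean of at least 50, with the 30 listed at 0 in a library in red. Right, log2(value + 1) of 5 germin-like genes of chromosome 4 in all 12 libraries, where replicate 1 of 15 min and replicate 2 of the control lie far below the other 10.

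The first library of 15 min also lacked a set of abundant transcripts. In 26 of the 1154 genes with a mean of at least 50 it lay more than 10 times below each of the other 5 libraries, whereas each other library did so in 0 to 3 genes. This set was noticed after the values were seen. It held 5 germin-like protein genes, secreted cell wall proteins of which some act in oxidative defence, within chromosome 4 from 14717882 to 14765695. Their values summed to 2029, 2063 and 6263 at 10 min, and to 29, 2253 and 7620 at 15 min. In flow cells 2 and 3 the 15 min sum was thus the higher one, and the 2 times overlapped. Genes for a chitinase (Lalb_Chr11g0073021, 48, 25 and 259, then 0, 66 and 71), a metallothionein-like protein (Lalb_Chr12g0210241, 226, 124 and 1143, then 4, 304 and 1148) and a LEA-14 protein (Lalb_Chr20g0111421, 179, 59 and 269, then 4, 89 and 113) were also low in that library. Of these, the metallothionein-like gene was higher at 15 min in flow cell 2 and level in flow cell 3, whereas the chitinase and LEA-14 genes were higher in flow cell 2 and lower in flow cell 3. In 22 of the 26 genes replicate 2 of the untreated roots, the only library with a lower total, was also more than 10 times below these 5. None of the 26 was called. The closest was the uncharacterized Lalb_Chr20g0108111, at 227, 201 and 2223 at 10 min and at 12, 138 and 167 at 15 min. Its times did not overlap (-2.80, 95% interval -5.60 to 0.00), and it passed the rule for a call with scaling (-2.59), with the replicate block and without 4 of the 6 libraries in turn. Without the first 15 min library (-1.61) or the third 10 min library (-1.68) it did not. The part of root zone, tissue or depth in this set was not tested.

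At higher values most differences were small as well. Of the 1154 genes with a mean of at least 50, 94.5% lay within 1 log2 unit, beside 96.3% of all tested genes. Their median was -0.34, further from 0 than the -0.14 of all genes (-0.13 and 0.01 with scaling). Of the 1154, 4 reached 0.05 before adjustment, and 1 was called in each direction, both short-model genes described above. In 101 of the 1154 (8.75%) all 15 min libraries lay below all 10 min libraries and in 0 above. Over all tested genes these shares were 2.53% and 0.514%. With scaling the counts were 49 (4.25%) and 7, beside 2.3% and 2.17% of all tested genes. The uncharacterized Lalb_Chr25g0286971 was at 66, 86 and 56 at 10 min and at 35, 38 and 39 at 15 min. Its libraries did not overlap, with a difference of -0.85 (95% interval -1.64 to -0.07), short of the limit for a call. The glycine-rich protein gene Lalb_Chr09g0334391, of a group of cell wall proteins, was at 159, 73 and 87 and then at 32, 70 and 41 (-1.13, interval -2.24 to -0.03). A nucleoside diphosphate kinase gene, Lalb_Chr07g0195341, whose enzyme balances the pools of nucleotides, was at 149, 147 and 119 and then at 96, 5 and 128, with the low value in flow cell 2 alone (-1.72, 95% interval -3.67 to 0.24).

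In the other direction no gene of high value other than Lalb_Chr09g0320861 came near a call. The chitinase gene Lalb_Chr21g0305371, for an enzyme that cleaves fungal cell walls, was at 214, 151 and 103 at 10 min and at 410, 206 and 136 at 15 min. It was higher at 15 min in each flow cell, but the times overlapped (0.59, 95% interval -0.46 to 1.65). The wound-induced gene Lalb_Chr11g0075151 was at 333, 520 and 303 and then at 565, 606 and 514 (0.58, 95% interval -0.29 to 1.45), and a metallothionein-like gene, Lalb_Chr13g0290951, of a family that binds metal ions, was at 116, 50 and 121 and then at 108, 129 and 185 (0.62, interval -0.55 to 1.79).

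The study lists 17 genes as higher than in untreated roots at every sucrose time, and they allow the course of the sucrose response between 10 and 15 min to be followed. The list was chosen on these same libraries, so that both times lie above the control by selection. In all 17 the median of either time was above every untreated library, and none of the 17 was called higher between the times. Only 1 was called lower, and 13 of the 17 differences were below 0, with a median of -0.33 beside -0.14 over all genes (-0.15 and 0.01 with scaling, and -0.07 without the first 15 min library). Within flow cells 1, 2 and 3 the 15 min value was the lower one in 13, 12 and 4 of the 17 genes. The list medians there were -0.49, -0.88 and 0.54, beside -0.585, 0.00 and 0.00 over all genes. In flow cell 1 the list thus did not lie below all genes. It lay below them in flow cell 2 and above them in flow cell 3.

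The called member was Lalb_Chr03g0025221, a small auxin-up RNA (SAUR) gene. SAUR genes respond within minutes to auxin, and in Arabidopsis thaliana several promote cell expansion. It was at 0 in all untreated libraries, at 7, 9 and 7 at 10 min, at 2, 0 and 8 at 15 min, and at 4, 6 and 4 at 20 min. The first 2 libraries of 15 min were low and the third was level with 10 min (-1.52, 95% interval -2.85 to -0.19). With scaling the difference was -1.33, below the limit for a call, and without the second 15 min library it was -0.73.

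The other members were not called. The WAT1-related gene Lalb_Chr22g0353301, of a family that includes a vacuolar auxin exporter, was at 6, 15 and 4 at 10 min and 2, 7 and 3 at 15 min, and was the lower one in each flow cell (-0.85, 95% interval -2.22 to 0.52). The gibberellin-regulated genes, small cysteine-rich proteins that respond to this growth hormone, overlapped throughout. Lalb_Chr08g0235731 was at 185, 276 and 148 and then at 124, 150 and 235, and Lalb_Chr02g0159351 was at 122, 195 and 66 and then at 77, 117 and 111. Both were lower at 15 min in flow cells 1 and 2 and higher in flow cell 3. The defensin gene Lalb_Chr08g0237751, for an antimicrobial peptide, had 73, 111 and 22 and then 47, 44 and 70, with the same split.

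The bHLH genes of the list went separate ways without a call. Lalb_Chr02g0158971 was at 16, 36 and 10 at 10 min and at 13, 13 and 15 at 15 min (-0.38, 95% interval -1.73 to 0.97). Lalb_Chr17g0347051 was at 4, 3 and 5 and then at 3, 3 and 15 (0.36, 95% interval -0.98 to 1.71). Cell wall genes of the list were lower at 15 min in flow cells 1 and 2 only. The expansin gene Lalb_Chr03g0033521, which loosens walls, was at 6, 16 and 5 and then at 3, 5 and 11, and the xyloglucan endotransglucosylase gene Lalb_Chr16g0392421, which cuts and rejoins hemicellulose, was at 12, 18 and 7 and then at 7, 8 and 10. The codeine 3-O-demethylase-like gene Lalb_Chr20g0109071, of the oxoglutarate-dependent dioxygenases, gave the closest match between the times, at 39, 102 and 145 and then at 46, 102 and 135. Its difference was 0.04, although the interval of -2.39 to 2.48 is wide because its values in other groups spread. Its gene model is also very short, at 227 bp, and untreated roots were listed at 0, 26 and 0. The other 7 members had differences within 1 log2 unit and none was called. Among them, the lipid transfer gene Lalb_Chr12g0198241 was at 14, 25 and 11 and then at 17, 6 and 18, and the glycosyltransferase gene Lalb_Chr17g0342451, for an enzyme that adds sugars to other molecules, was at 8, 5 and 4 and then at 1, 12 and 4. In both, the order of the times differed between flow cells.

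**Figure D4:**
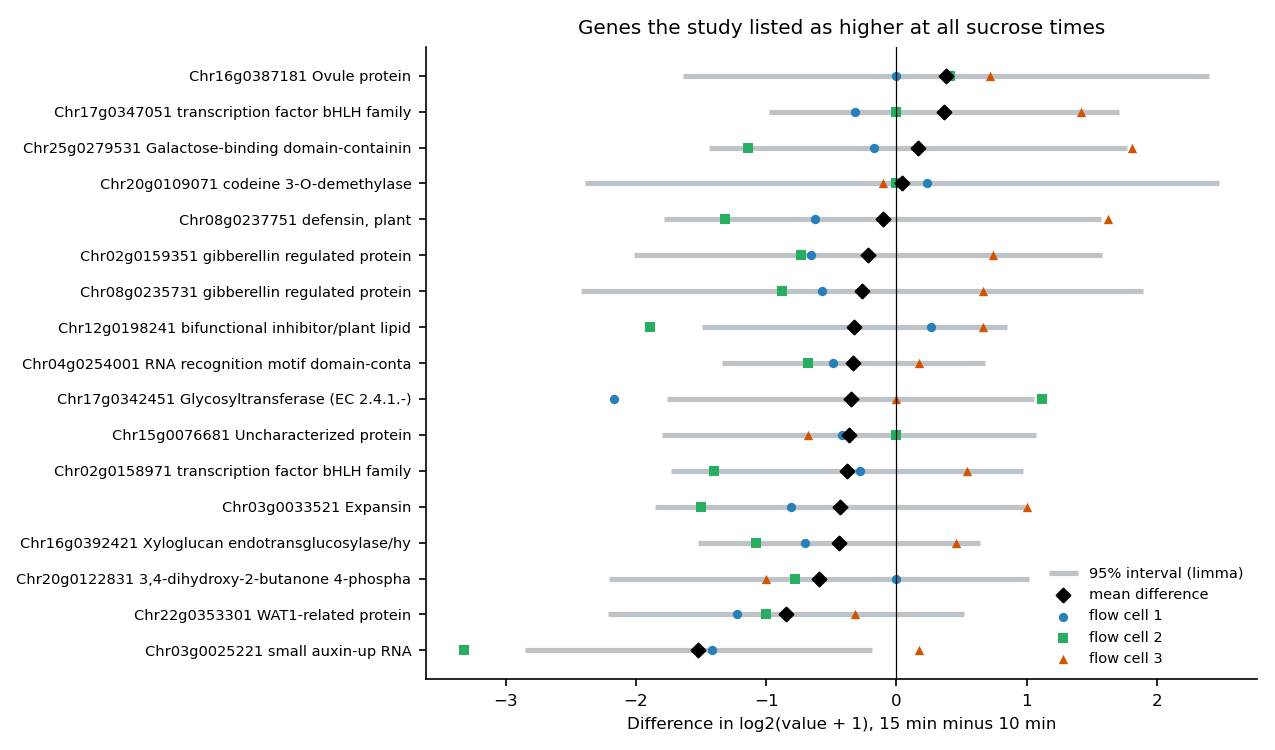
Difference in log2(value + 1), 15 min minus 10 min, for the 17 genes the study listed as higher at every sucrose time, as the mean with its 95% limma interval and as the value within each flow cell. The SAUR gene Lalb_Chr03g0025221 is the only one whose interval excludes 0, and in most genes the flow cell 3 value lies to the right of the other 2.

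Other genes that the study gives by identifier included a lipid transfer protein gene of high value. Lipid transfer proteins are small secreted proteins that bind lipids and serve in cuticle formation and defence. Lalb_Chr05g0225671 was at 480, 429 and 493 in untreated roots, at 1406, 1651 and 1373 at 10 min, at 701, 1156 and 1106 at 15 min and at 724, 982 and 1242 at 20 min. All 15 min libraries lay below all 10 min libraries and above all untreated ones. The difference was -0.61 (95% interval -1.40 to 0.18), and -0.39 with scaling. Its neighbour in name and position, Lalb_Chr05g0225711, was at 1791, 2058 and 1753 and then at 921, 1500 and 1405 (-0.58, 95% interval -1.37 to 0.22). Whether these neighbours share reads was not tested. The 2 reference genes of the study, a histone H2A gene (Lalb_Chr11g0072021) at 34, 30 and 26 and then 20, 21 and 31, and a proteasome gene (Lalb_Chr08g0243601) at 4, 3 and 1 and then 3, 2 and 1, had differences of -0.33 and -0.25. A pair of uncharacterized genes listed as lower in sucrose had little left to compare. Lalb_Chr19g0140251 was at 0 in all 6 libraries and Lalb_Chr05g0220091 at 1, 2 and 0 and then at 2, 1 and 0. The peroxidase gene Lalb_Chr02g0143031, for an enzyme that crosslinks cell walls, was at 3, 6 and 8 and then at 1, 2 and 7 (-0.80, 95% interval -1.94 to 0.34).

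**Figure D5:**
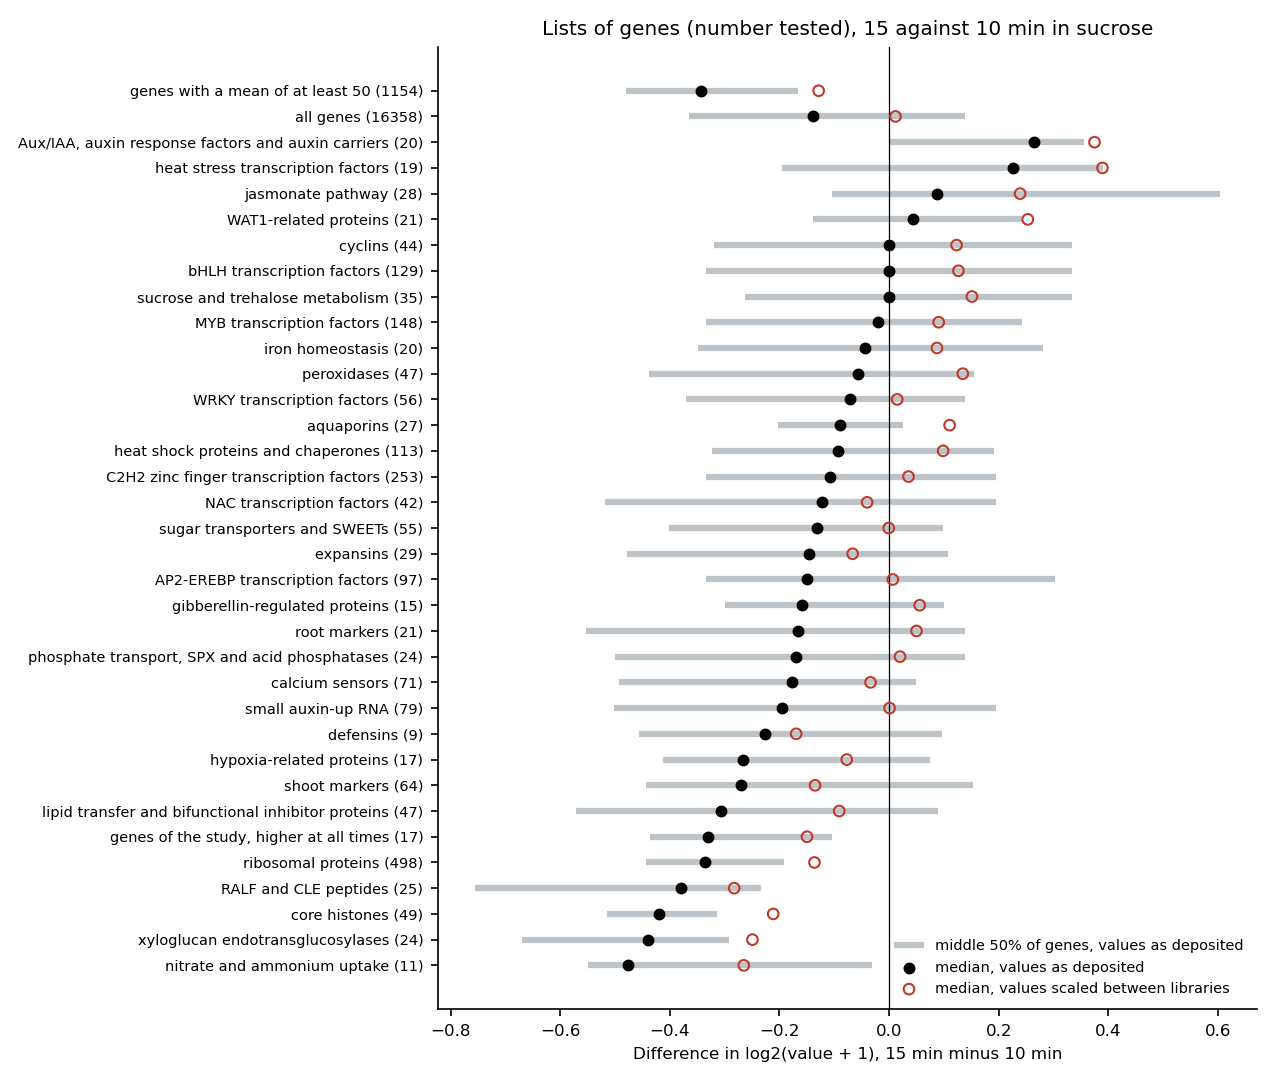
Median difference in log2(value + 1), 15 min minus 10 min, for each list of genes with at least 5 tested members, with the deposited values (black, grey bar for the middle 50% of genes) and after scaling between libraries (red circles). All medians lie between -0.48 and 0.26 with the deposited values.

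Families picked by the deposited protein names were next described as wholes. Of 35 lists, the 17 genes of the study included, 26 held no called gene, and their medians lay between -0.48 and 0.26 with the deposited values and between -0.28 and 0.39 with scaling. For comparison, the median of all tested genes was -0.14 and 0.01. Over all tested genes 9927 differences (60.7%) were below 0 and 5364 above, and the counts of each list are to be read against that share. Of the 35 medians 27 were below 0 with all libraries and 10 without it, where the median of all genes was 0.02. No list was tested.

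Hormone response genes held a single call. Of 79 tested SAUR genes, 50 differences were below 0 and 28 above, a share of 63.3%, the median was -0.20 (0.00 with scaling and without the first 15 min library), and the gene named above was the only call. The most abundant SAUR genes, Lalb_Chr02g0150051 (99, 112 and 56, then 42, 97 and 61) and Lalb_Chr02g0150031 (45, 61 and 65, then 48, 54 and 92), overlapped between the times. The 20 tested Aux/IAA, auxin response factor and auxin carrier genes, which relay or transport auxin, had a median of 0.26 (0.38 with scaling, 0.18 without the first 15 min library), with 13 differences above 0, 4 below and no call. The auxin response factor Lalb_Chr01g0022611 was at 14, 11 and 9 and then at 15, 13 and 22, and Lalb_Chr04g0261481 at 13, 8 and 10 and then at 16, 12 and 16. The intervals of both included 0 (-0.57 to 1.58 and -0.48 to 1.44). Of 15 gibberellin-regulated genes 7 differences were above and 8 below 0. Of 28 jasmonate pathway genes, which make or relay this wound hormone, 15 were above and 10 below, with a median of 0.09 (0.24 with scaling). The lipoxygenase gene Lalb_Chr04g0263291, at the first step of that pathway, was at 54, 52 and 4 and then at 114, 44 and 13. Only 2 ethylene synthesis genes passed the filter, and both were at values of at most 3.

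The 7 listed transcription factor families, with 744 tested genes, held 3 genes called higher (0.403%, beside 0.0917% of all genes) and 2 called lower (0.269%, beside 0.226%). Of 129 bHLH genes 1 was called higher, 58 differences were above and 64 below 0, and the median was 0.00. The abundant bHLH gene Lalb_Chr07g0177941 was at 34, 66 and 45 and then at 40, 32 and 57. Of 148 MYB genes 1 was called higher and of 97 AP2-EREBP genes 1, both named above, and of 56 WRKY genes and 253 C2H2 zinc finger genes 1 each was called lower. None of 42 NAC genes and none of 19 heat stress transcription factor genes was called, nor did any of them reach a limma p-value of 0.05 before adjustment. The heat stress factors, which switch on chaperones, had a median of 0.23 with 11 differences above and 7 below 0, and 0.39 with scaling. The 113 heat shock proteins and chaperones, their targets, had a median of -0.09, and Lalb_Chr01g0019321, an Hsp70 gene, was at 196, 166 and 125 and then at 214, 173 and 114 (0.02, 95% interval -0.78 to 0.82).

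The lists of RALF and CLE peptide, cell wall and lipid transfer genes held the CLE gene as their only call. Of 25 RALF and CLE genes, for peptides that alkalinize the wall space or act on meristems, 22 differences were below 0 and 3 above, with a median of -0.38 (-0.28 with scaling). Without the first 15 min library that median was -0.06, beside 0.02 over all genes, so it rested on that library. The most abundant RALF gene shows this, as Lalb_Chr06g0174901 was at 293, 345 and 265 and then at 106, 364 and 320. Of 24 xyloglucan endotransglucosylase genes 20 were below and 4 above 0, with a median of -0.44 (-0.25 with scaling, -0.18 without the first 15 min library) and no call. Lalb_Chr12g0199291 was at 174, 100 and 55 and then at 88, 98 and 39. Of 29 expansin genes 20 were below and 8 above 0, with a median of -0.15 that was 0.06 without the first 15 min library. Of 47 peroxidase genes 28 (59.6%) were below and 19 above 0, with a median of -0.06 (0.13 with scaling), close to all genes. The 47 lipid transfer genes had a median of -0.31 (-0.09 with scaling), which turned to 0.14 without the first 15 min library. In 2 of them (4.26%, beside 2.53% of all genes) the 15 min libraries lay below all 10 min libraries, and none was called.

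Genes of sugar handling gave no call. Of 55 sugar transporter and SWEET genes, which move sugars across membranes, 20 differences were above and 30 below 0, with a median of -0.13 (0.00 with scaling, 0.07 without the first 15 min library). The SWEET gene Lalb_Chr08g0240571 was at 153, 125 and 99 and then at 122, 176 and 90 (0.01, 95% interval -0.80 to 0.82). Of 35 sucrose and trehalose metabolism genes 16 were above and 17 below 0. The hexokinase gene Lalb_Chr14g0375741, whose enzyme phosphorylates glucose and also senses it in plants, was at 101, 77 and 147 and then at 60, 88 and 108 (-0.33, 95% interval -1.19 to 0.52), and the fructokinase gene Lalb_Chr22g0352101 at 81, 74 and 44 and then at 42, 63 and 53 (-0.30, 95% interval -1.05 to 0.45). Each of the 3 overlapped between the times. The 24 phosphate transport, SPX and acid phosphatase genes, tied to phosphorus supply, had a median of -0.17 (0.02 with scaling) and 20 iron homeostasis genes one of -0.04 (0.09). The 11 nitrate and ammonium uptake genes had a median of -0.48 (-0.27 with scaling), but 0.13 without the first 15 min library. The nitrate transporter gene Lalb_Chr07g0183011 followed this, at 162, 126 and 193 and then at 31, 160 and 288. The 27 aquaporin genes, for water channels, 71 calcium sensor genes, 17 hypoxia-related genes, 9 defensin genes and 21 WAT1-related genes held no call either, with medians of -0.09, -0.18, -0.27, -0.23 and 0.04. Without the first 15 min library these medians were 0.29, 0.02, 0.33, -0.03 and 0.00, so that the first 3 turned in sign.

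Ribosomal protein and histone genes lay mostly below 0 by small steps, as did the set of abundant genes taken whole. Of 498 tested ribosomal protein genes, 431 differences were below 0 and 58 above, and in 70 (14.1%) all 15 min libraries lay below all 10 min libraries. That share was 2.53% among all tested genes and 8.75% among the 1154 genes of a mean of at least 50. The set of 1154 itself includes ribosomal protein and histone genes, and abundant genes of other kinds were not set apart. With scaling the ribosomal count was 37 (7.43%), beside 4.25% of the abundant genes and 2.3% of all tested genes. The ribosomal median was -0.34, the same as the -0.34 of those abundant genes, and -0.14 beside -0.13 with scaling. It was -0.26 beside -0.14 without the first 15 min library. The gene for S30, Lalb_Chr05g0214471, was at 1264, 1073 and 1198 and then at 629, 1038 and 903 (-0.49, 95% interval -1.45 to 0.47). Its times did not overlap, nor did those of the L29 gene Lalb_Chr13g0298361, at 1196, 1406 and 1107 and then at 692, 1031 and 1041. Of 49 core histone genes, whose products package DNA and are made mostly in dividing cells, 47 differences were below 0, with a median of -0.42 (-0.21 with scaling, -0.20 without the first 15 min library) and no call. Within flow cells 1, 2 and 3 the histone median was -0.84, -0.49 and 0.08, and the ribosomal median -0.65, -0.39 and 0.00. The abundant genes had medians of -0.79, -0.185 and 0.00 there. Flow cell 3 therefore did not share the step. Of 44 cyclin genes, which drive the cell cycle, 19 were above and 21 below 0.

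Markers of root tissue and of material from other organs were checked beside these lists, since in such mixed samples fewer cells of a type and less RNA per cell cannot be told apart. Of 23 root marker genes 21 were tested and 0 called, and their summed values ranged from 2596 to 5340 at 10 min and from 1290 to 8480 at 15 min, lowest in the first 15 min library and highest in the third. Extensins, wall proteins of roots, summed to 896, 1027 and 1164 and then to 582, 968 and 954. Root cap proteins summed to 16, 57 and 67 and then to 2, 27 and 110. No gene was named for a Casparian strip membrane protein. The 110 shoot marker genes, of which 64 were tested and 0 called, summed to between 344 and 1571 at 10 min and between 362 and 1720 at 15 min. The small chain of ribulose bisphosphate carboxylase, a marker of green tissue, summed to 3, 3 and 100 and then to 1, 2 and 126, so that it followed flow cell 3 at both times. The 10 nodule marker genes summed to between 11 and 43 and between 11 and 98, and no leghemoglobin gene was among them. The part of these differences in any result above was not tested.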

How the data were processed

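The authors sequenced barcoded cDNA on 3 MinION flow cells, oriented reads with Pychopper, aligned them to CNRS_Lalb_1.0 (Minimap2), built transcripts (StringTie) and quantified genes (Salmon). The deposited values were used as a score, since they carry the name CPM but are whole numbers (100.0% of values) that sum to different totals, so the depth behind a single value is unknown. The comparison table of the authors holds their own fold changes and p-values against the control, made with DESeq2, and was not used. All 23427 identifiers were found in the annotation, which gave the coordinates. log2(value + 1) was fitted with limma 3.58.1 in R 4.3.3 (trend in the variance) over 12 libraries in 4 groups, and p-values were adjusted by Benjamini-Hochberg over 16358 genes. Scripts were tested on simulated data, and tables were made in Python 3.11.15 with pandas 2.3.3. Nothing says that replicates were grown apart, so p-values measure the spread between these samples.

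Genes and lists were chosen with earlier results of these data known. Named genes were up to 10 per direction with the smallest p-value among calls without overlap and a median of at least 5 at the higher time, up to 5 per direction with the smallest p-value among genes with a mean of at least 50, the 23 genes the study gives by identifier, and up to 3 calls and the 2 most abundant members of each list. Other called genes, the germin-like set and neighbours were named after their values were seen. Replicate numbers name flow cells. Deviations from the group means correlated at 0.322, 0.218 and 0.708 in same-numbered libraries of 10 and 15 min, and at -0.54 to 0.40 in others. Between the times, replicate 1 and replicate 2 correlated with each other at 0.335 and 0.401. The 0.708 of replicate 3 was the highest. Deviations of 3 libraries from their mean sum to 0, so the distance of replicate 3 pushes replicates 1 and 2 together. This measure therefore cannot decide whether replicates 1 and 2 were paired by number. Alternatives were other pseudocounts, filters, scalings, fits of the 6 libraries, the flow cell as a block and omission of each library.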

Additional observations from a re-analysis of the deposited data

How the results depend on the processing

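The number of genes higher at 15 min was 15, and it was 53 with a pseudocount of 0.5, 0 with 5, 23 without a filter, 2 with a filter of at least 5, 26 with median-of-ratios scaling, 30 with scaling to the same total, 24 with the replicate block by flow cell and 34 with the block and median-of-ratios scaling together, an alternative added after seeing the data. Omission of a library gave 25 to 48. The number lower was 37, and it was 111 and 7 with pseudocounts of 0.5 and 5, 15 with the stricter filter, 24 with scaling to the same total and 27 to 111 with a library omitted. The 226 genes with an unadjusted p-value of at most 0.05 became 343 without a filter, 40 with the stricter filter (6788 genes tested), 372 with the block, 576 with the block in the 6 libraries, 420 with the block and scaling, and 223 to 391 with a library omitted. The number with an adjusted limma p-value of at most 0.05 stayed at 0 except for 1 gene without the third 10 min library and 1 without the third 15 min library, a range of 0 to 1. In both, the omitted library was the one that went against the call of that gene. The median difference of all genes ranged from -0.21 to 0.02 with a library omitted. No count test was run because the unit of the values is unsettled. The cause of these shifts was not tested.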
